A study of Mus musculus with 2 samples.

Results

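miR-21a is an abundant macrophage miRNA, and its hairpin gives 2 mature strands, the guide miR-21a-5p (listed as mmu-miR-21a-5p) and the passenger miR-21a-3p (mmu-miR-21a-3p). Both were found by name among the 1976 mature miRNAs listed for each library, so the set holds 2 members of 1976. The libraries came from exosomes of bone marrow-derived macrophages of C57BL/6 mice aged 5 to 6 weeks. Marrow cells were grown for 7 days with M-CSF at 10 ng/mL, a growth factor that turns them into macrophages. They were then polarised for 1 day at 20 ng/mL with IFN-γ (the M1 library) or with IL-4 (the M2 library). Both cultures next spent 2 days in medium without serum, from which the vesicles were pelleted by ultracentrifugation, and 500 ng of RNA went into each small RNA library. There is 1 library per group, so no value has a replicate error, no test of the conditions exists, and every difference is one between 2 libraries. Whether marrow from several mice was pooled is not given in the sources used here, and the libraries hold vesicle RNA, so RNA of the cells themselves was not measured.

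A miRNA hairpin is cut into a duplex of 2 short strands. The guide is kept by an Argonaute protein and directs it to messenger RNAs that match the guide's seed, while the passenger strand is usually lost. In macrophages miR-21 is transcribed in response to STAT3, AP-1 and NF-κB signalling, and its guide represses Pdcd4, a translation inhibitor that favours inflammatory output. The passenger strand has been described as vesicle cargo that fibroblasts pass to heart muscle cells.

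The mature sequences are shown because the guide and the passenger carry unrelated seeds, while miR-21b and miR-21c differ from the guide in only a few bases. They are RefSeq sequences on GRCm38.p6, 5′ to 3′, with the seed (bases 2 to 8) in capitals. RefSeq held 4 of these 5 entries, and miR-590-5p, the remaining relative, is named only.
miR-21a-5p: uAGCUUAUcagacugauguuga
miR-21a-3p: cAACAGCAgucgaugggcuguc
miR-21c: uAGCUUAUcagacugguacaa
miR-21b: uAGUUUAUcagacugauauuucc

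The miR-21a strands share no seed. Among 1679 mature mouse names in the RefSeq table, the seed AGCUUAU occurred in 2, miR-21a-5p and miR-21c, and the seed AACAGCA in 1, miR-21a-3p. Counted from 1 at the 5′ end of miR-21a-5p, miR-21c is identical over the first 15 bases and carries A16G, G18A, U19C, U20A and G21A. miR-21b carries C4U inside the seed and G18A, G21U and A22C near the 3′ end. Both miR-21a strands are 22 bases long. The guide starts with U, as 41.3% of the mature entries do, and the passenger starts with C. Of the guide's bases 36.4% are G or C, against 59.1% of the passenger's. In the predicted fold of the 92-base hairpin, 19 guide bases pair with the passenger, 3 of them as G with U. The first base of the guide lies in such a weak pair, U with G, and the first base of the passenger is paired as C with G.

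The miR-21a hairpin lies on the minus strand of chromosome 11, from 86584067 to 86584158 (GRCm38.p6). GENCODE M21 places it in exon 12 of Vmp1, a gene of autophagy and membrane traffic, within the untranslated end of that exon. The guide occupies 86584120 to 86584141 and the passenger 86584082 to 86584103. The miR-21b hairpin is on chromosome 3, from 29636744 to 29636851, in an intron of Egfem1. The miR-21c hairpin is on chromosome 8, from 128278148 to 128278225, where GENCODE M21 lists no other gene.

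The guide was abundant in both libraries and the passenger was scarce in both, and the strands differed between the libraries in opposite directions. The guide was higher in M2 exosomes and the passenger was higher in M1 exosomes, each by close to 2-fold. Values are the deposited log2(level + 1), and a level is 2 to the power of that value minus 1, in the authors' normalized units.

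For miR-21a-5p the deposited value was 14.48 in the M1 library and 15.47 in the M2 library. These are levels of 22866 and 45449 units. The guide held 3.33% of the summed level of all miRNAs in M1 exosomes against 6.19% in M2 exosomes, and ranked 9 and 6 among all listed miRNAs. Its log2 ratio, M1 minus M2, was -0.99, which is 1.99-fold higher in M2 exosomes and just short of the 2-fold difference used as the call. Of the 337 miRNAs with at least 10 units in 1 or both libraries, 22.8% were called higher in M2 exosomes and 26.1% higher in M1 exosomes, so a difference of this size was common. The ratio was as low or lower in 80 of the 337, or 23.7%. The side of the 2-fold line depended on the scaling. It was -1.03 with ratios centred on their median and -1.05 with libraries divided by their sum without the 10 most abundant miRNAs, both past 2-fold, and -0.89 with libraries divided by their full sum.

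For miR-21a-3p the deposited value was 5.92 in the M1 library and 4.85 in the M2 library. These are levels of 59.4 and 27.9 units, or 0.0087% and 0.0038% of the summed level. The passenger ranked 172 in M1 and 213 in M2 exosomes. Its log2 ratio was 1.06, or 2.09-fold higher in M1 exosomes, which passed the 2-fold call. The ratio was as high or higher in 86 of the 337 miRNAs, or 25.5%, near the 26.1% called in that direction. The call was lost with a pseudocount of 5, where the ratio was 0.97.

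Depth differs greatly between the strands. At low levels 1 read was worth 0.80 units in the M1 and 1.22 units in the M2 library. At that worth the passenger would rest on about 74 reads in M1 and 23 in M2 exosomes, and the guide on far more. The worth of a read was seen only at the lowest levels, so these are rough sizes and no counting interval is given. In M1 exosomes it was lower where M2 was higher, at 0.69 units for miR-467a-5p with 32.7 units in M2, so 74 may be too few.

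**Figure D1:**
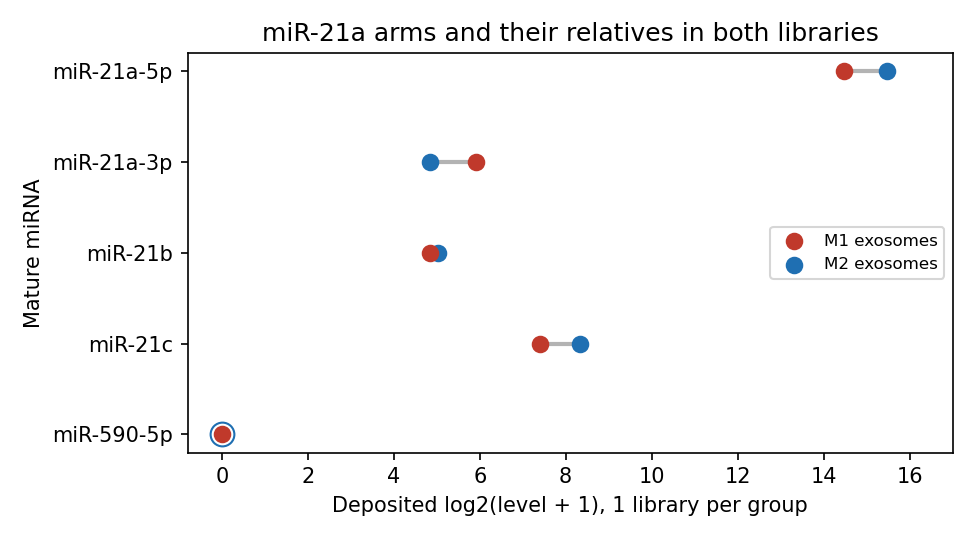
Deposited log2(level + 1) on the horizontal axis for each mature miRNA on the vertical axis, with 1 point per library (red, M1 exosomes; blue, M2 exosomes) and no error bars because each group has 1 library. miR-21a-5p and miR-21c lie further right in M2 exosomes, miR-21a-3p lies further right in M1 exosomes (5.92 against 4.85), and miR-590-5p is at 0 in both, its blue point drawn as an open ring.

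The gap between the strands was therefore wider in M2 exosomes. The guide exceeded the passenger 385-fold in M1 and 1630-fold in M2 exosomes. The passenger made up 0.26% of the level of both strands in M1 exosomes against 0.061% in M2 exosomes. The sum of both strands followed the guide and was 1.98-fold higher in M2 exosomes. On the deposited scale the strands lay 8.56 log2 units apart in M1 exosomes but 10.62 apart in M2 exosomes, a change of -2.06 in the log2 ratio of guide over passenger. This difference is taken within each library, so a factor common to a whole library does not enter it. A normalization that varies with the level would enter it, and the normalization is not given in the sources used here. It stayed past 2-fold with a pseudocount of 5, at -1.96, and with none, at -2.08.

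Unequal movement of the 2 strands of a hairpin was frequent in these libraries. Of 772 hairpin names with both a 5p and a 3p entry, 68 had each strand at 10 units or more in at least 1 library. In 27 of the 68, or 39.7%, the ratio of 5p over 3p differed at least 2-fold between the libraries. It was lower in M1 exosomes in 18, or 26.5%, and higher in 9, or 13.2%. miR-21a had the 8th lowest value of the 68, against a median of -0.42 and a standard deviation over hairpins of 1.51. The strands had log2 ratios of opposite sign in 26 hairpins, and in 17 of these, miR-21a among them, 5p was higher in M2 exosomes and 3p in M1 exosomes. In 5 hairpins, or 7.35%, the strands passed 2-fold in opposite directions. miR-21a was not 1 of them, because its guide stopped at -0.99.

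The hairpins with an arm difference nearest to that of miR-21a were miR-27a at -2.07, miR-125a at -2.40, miR-27b at -1.65, miR-330 at -1.48 and miR-199a at -1.47. In miR-27a, whose guide is the 3p strand, the value came mostly from a rarer 5p strand with a log2 ratio of -1.64. Its 3p strand had 0.43. In miR-125a it came mostly from a 3p strand with a ratio of 2.20, while the 5p strand had -0.20. In both of these and in miR-27b (-1.05 and 0.60), 5p was higher in M2 exosomes and 3p in M1 exosomes, as in miR-21a. In miR-330 and miR-199a both strands were higher in M1 exosomes. The lowest values were those of miR-322 at -4.71, miR-26b at -4.57, let-7d at -3.03, miR-378a at -3.01 and miR-29c at -2.64. The size of the first and second is uncertain, because miR-322-5p was listed at 0 in M1 exosomes and miR-26b-3p had a value of 0.11 in M2 exosomes, below the worth of 1 read. The highest were those of miR-582 at 3.18, miR-669a at 2.81, miR-142a at 2.79, miR-30e at 2.60 and miR-185 at 2.35.

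**Figure D2:**
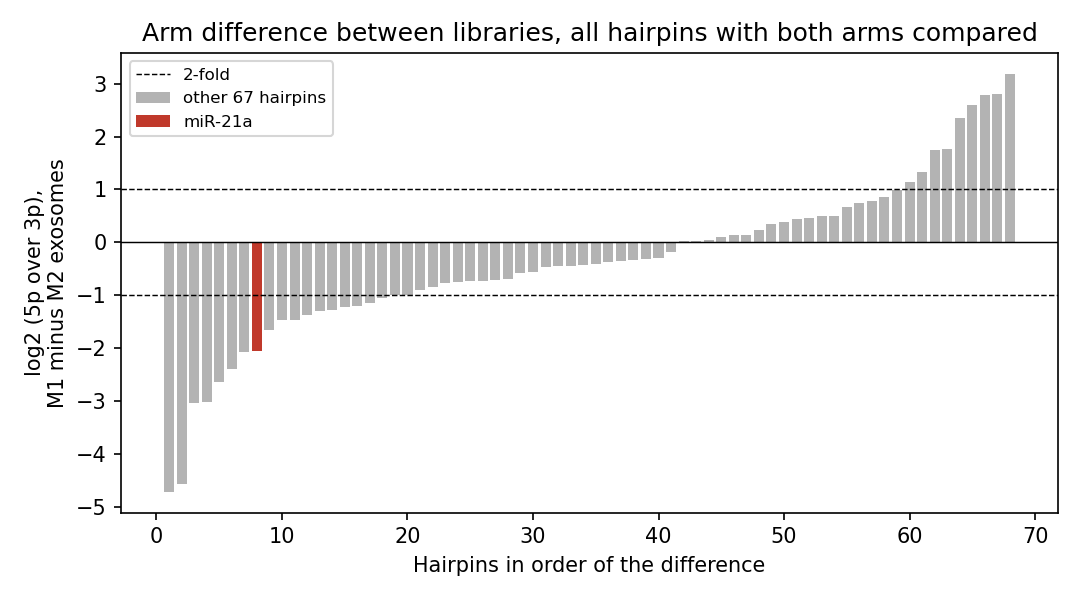
Each bar is 1 of the 68 hairpins with both strands compared, in order along the horizontal axis. The vertical axis is the log2 ratio of 5p over 3p in M1 exosomes minus that in M2 exosomes, with dashed lines at 2-fold. The red bar is miR-21a at -2.06, the 8th lowest, and 27 bars pass a dashed line.

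Taking the strand with the higher level as the guide, miR-21a had 1 of the widest gaps between strands. Its gap was the 6th widest of 68 in M1 exosomes and the 3rd widest in M2 exosomes, where the median gaps were 3.50 and 3.47 log2 units. The ratio of higher over lower strand was at least 2-fold lower in M1 exosomes in 15 hairpins, or 22.1%, and at least 2-fold higher there in 12, or 17.6%. miR-21a had the 7th lowest value by this measure. Over the 68 hairpins the median log2 ratio was 0.42 for the lower strands and 0.38 for the higher strands. Of the 68 lower strands 24 were called higher in the M1 library and 12 in the M2 library, against 18 and 12 of the higher strands. Over all 337 miRNAs 26.1% were called higher in the M1 library and 22.8% in the M2 library.

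The passenger strands of other inflammation-linked and myeloid miRNAs were called in both directions, with only 10 compared, so the shares called are coarse. Of 15 on that list 10 were compared, of which 4 were called higher in the M1 library, 2 were called higher in the M2 library and 4 were not called, beside 26.1% and 22.8% of all 337 miRNAs. The list had a median log2 ratio of -0.11 against 0.04 over all 337 miRNAs. miR-125a-3p was 4.58-fold higher in M1 exosomes, at 8.39 against 6.19, and miR-125b-2-3p was 2.07-fold higher in M2 exosomes. In M1 exosomes miR-125a-3p lay above its other strand, miR-125a-5p, at 8.16. miR-223-5p and miR-22-5p had log2 ratios of -0.66 and -0.02.

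The near-identical entries, miR-21c and miR-21b, followed the guide to different degrees. For miR-21c the values were 7.40 and 8.34 in M1 and M2 exosomes, or 168 and 323 units. Its log2 ratio was -0.94, beside -0.99 for the guide, whose seed and first 15 bases it shares. miR-21a-5p exceeded miR-21c 136-fold in M1 and 141-fold in M2 exosomes, so miR-21c stood at a nearly fixed 0.73% and 0.71% of the guide. How reads that match several entries were assigned is not given in the sources used here, so miR-21c levels are uncertain as a measure of its own locus. miR-21b, which differs from the guide inside the seed, had 27.7 and 31.6 units and a log2 ratio of -0.18. It stood at 0.12% of the guide in M1 exosomes and 0.069% in M2 exosomes, shares further apart than those of miR-21c. At the low-level worth of a read, miR-21b would rest on about 35 and 26 reads, again as rough sizes. miR-590-5p was listed at 0 in both libraries, a reading that leaves room for 3 reads (2.40 units in the M1 and 3.67 units in the M2 library) on counting error alone.

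**Figure D3:**
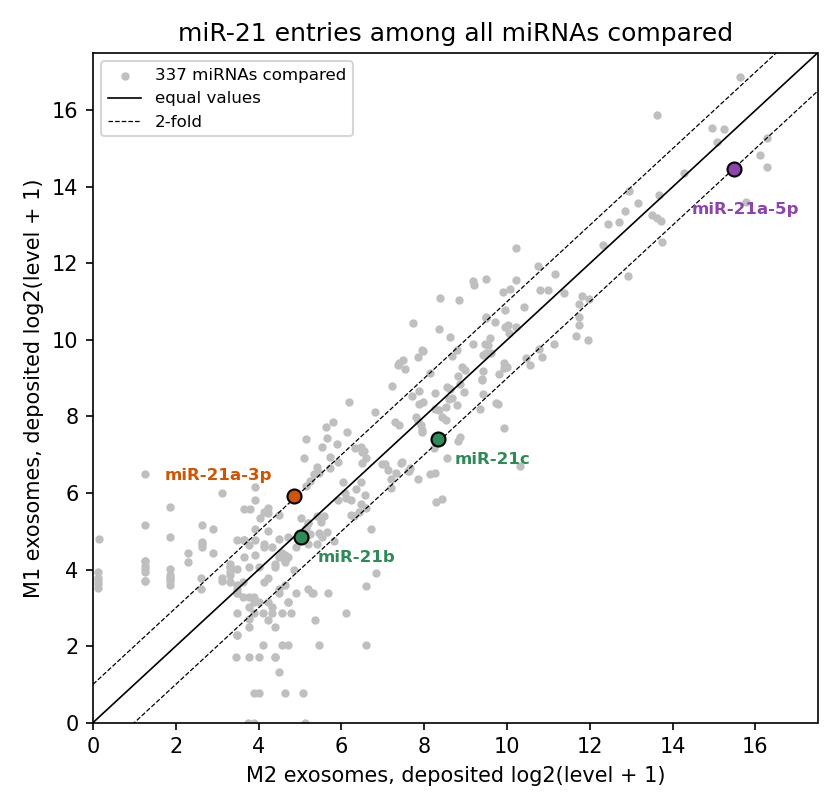
Each point is a miRNA, with the deposited log2(level + 1) in M2 exosomes on the horizontal axis and in M1 exosomes on the vertical axis. Grey points are the 337 miRNAs compared, the solid line marks equal values and the dashed lines 2-fold. miR-21a-5p and miR-21c lie near the lower dashed line, miR-21a-3p near the upper one and miR-21b close to equality.

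Among the most abundant miRNAs, miR-21a-5p was 1 of those higher in M2 exosomes. A mean level of at least 10000 units was reached by 17 miRNAs. Of these, 4 were called higher in M2 exosomes and 2 higher in M1 exosomes, which is 35.3% counting either direction. Among all 337 miRNAs compared, 22.8% were called toward the M2 library and a further 26.1% toward the M1 library. Each of these shares counts 1 direction only and they add up, so calls in either direction were less frequent among the 17 than among all 337. The 4 were let-7f-5p, let-7j, miR-148a-3p and miR-99a-5p, which were 4.53-fold, 3.39-fold, 2.41-fold and 2.01-fold higher there. miR-21a-5p came next, and miR-99a-5p, on the other side of the 2-fold line, differed from it by less than the shifts between scalings. miR-146a-5p and miR-122-5p were the 2 called higher in M1 exosomes. In M1 exosomes the guide ranked just below let-7j, at 14.52, and just above miR-10a-5p, at 14.36. In M2 exosomes it ranked just below miR-146a-5p, at 15.63, and just above miR-221-3p, at 15.24. Without replicates it is not known whether these neighbours differ beyond their spread.

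**Figure D4:**
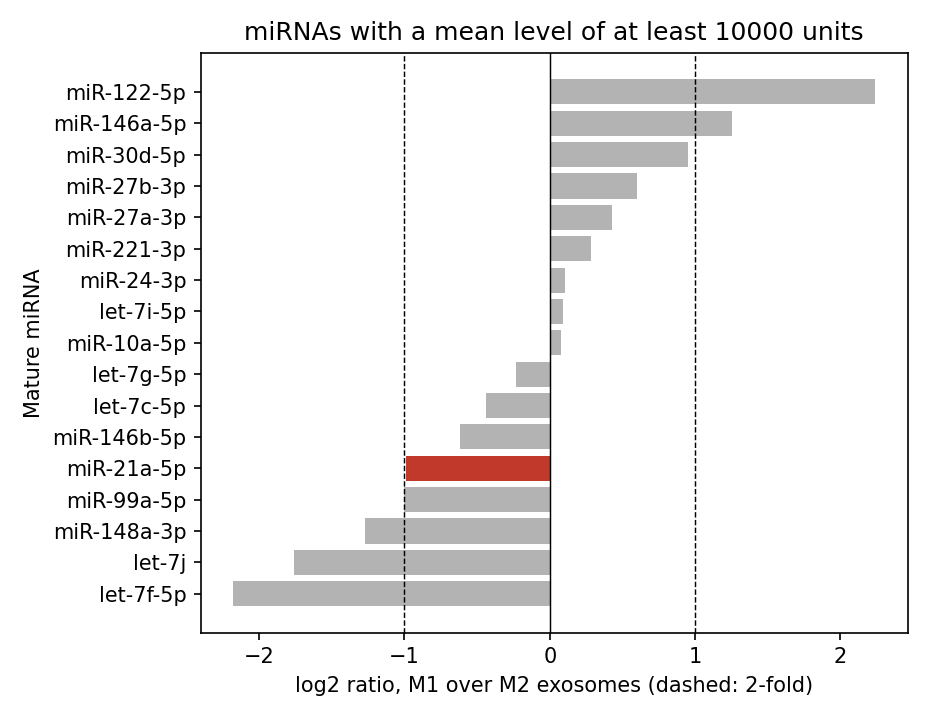
Bars give the log2 ratio of M1 over M2 exosomes on the horizontal axis for the 17 miRNAs whose mean level reached 10000 units, in order of the ratio. The dashed lines mark 2-fold, and the red bar of miR-21a-5p at -0.99 ends next to the line, the 5th lowest of the 17.

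Likeness in level was measured as the distance between 2 miRNAs in the plane of both deposited log2 values, over 2 libraries. The miRNAs nearest to the guide were miR-148a-3p at 0.72, let-7i-5p at 0.79, let-7j at 0.81, let-7f-5p at 0.93 and miR-221-3p at 1.07. Those nearest to the passenger were miR-29c-3p at 0.086, miR-495-3p at 0.40, miR-450b-5p at 0.56, miR-199a-5p at 0.60 and miR-3964 at 0.61. miR-29c-3p was almost the same as the passenger in both libraries, at 5.86 and 4.79. The passenger's neighbours in rank were miR-200b-3p at 5.95 and miR-342-5p at 5.88 in M1 exosomes, and miR-5129-3p at 4.91 and miR-6395 at 4.85 in M2 exosomes.

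Other miRNAs linked to inflammatory signalling were called at about the shares of all miRNAs. Of 11 on that list 10 were compared, with 3 called higher in M1 exosomes, 2 called the other way and 5 not called, beside 26.1% and 22.8% of all 337, and the median log2 ratio was -0.22. miR-146a-5p, a brake on NF-κB signalling, was 2.38-fold higher in M1 exosomes, and miR-155-5p, which promotes inflammatory activation, was 2.55-fold higher there. Also higher in M1 exosomes was miR-147-3p, by 6.54-fold. The 2 called higher in M2 exosomes were miR-9-5p, by 12.2-fold, and miR-125b-5p, by 4.68-fold. miR-146b-5p, the close relative of miR-146a-5p, had a log2 ratio of -0.62 and miR-181b-5p had 0.13.

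The myeloid markers were present in both libraries, and markers of other cell types were present beside them. All 8 myeloid markers were compared, 4 called higher in the M1 library and 1 in the M2 library, beside 26.1% and 22.8% of all 337 miRNAs. Their summed level was 130554 units in M1 and 56663 in M2 exosomes, of which miR-146a-5p alone gave 120526 and 50604. The marker called higher in M2 exosomes was miR-142a-3p, with a log2 ratio of -1.07. The other strand of its hairpin, miR-142a-5p, was called higher in M1 exosomes, at 1.72. miR-223-3p had -0.69. On the inflammation-linked list too are miR-146a-5p, miR-155-5p and miR-223-3p, so the counts of these lists are not separate. Among the others, miR-22-3p had a 2.42-fold excess in M1 exosomes and miR-191-5p had a log2 ratio of 0.50. miR-21 is also abundant in fibroblasts, and the 6 stromal markers summed to 4413 units in M1 and 1498 in M2 exosomes, with 3 of 5 compared called higher in M1 exosomes, against the 26.1% of all miRNAs called in that direction. Those called include miR-10b-5p, 4.27-fold, and miR-199a-3p, 3.46-fold, while miR-143-3p had -0.33, and miR-145a-5p had an M2 level of 1.39 units, near that of 1 read. The 4 erythroid markers summed to 5192 and 910.1 units, and the 3 compared were called higher in M1 exosomes (again beside 26.1%), among them miR-451a, 6.60-fold, and miR-486a-5p, 5.13-fold. The 3 hepatocyte markers summed to 60272 and 13050 units, mostly miR-122-5p, 4.72-fold higher in M1 exosomes, with miR-192-5p and miR-194-5p at 0.35 and 0.34. These lists were higher in the library where the passenger was higher and the guide lower, and their part in either difference was not tested.

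The remaining marker lists were small or low. Their calls stand beside the 26.1% of all 337 miRNAs called higher in M1 exosomes and the 22.8% in M2 exosomes. The 2 endothelial markers lay within 2-fold, with miR-126a-3p at 0.71, and summed to 962 and 589 units. Of 6 epithelial markers 4 were compared, 2 called higher in M1 exosomes, with sums of 239 and 166 units. Of 4 neuronal markers 3 were compared, 1 called each way, with sums of 462 and 1527 units. The second sum was mostly miR-9-5p, 12.2-fold higher in M2 exosomes, which is also on the inflammation-linked list. miR-128-3p had 0.40, and miR-124-3p, the defining neuronal marker, was listed at 0 in both. The 3 muscle markers summed to 18.1 and 28.9 units with miR-133a-3p at 0 in M1 exosomes, 1 was compared and 0 were called. The lymphocyte marker miR-150-5p had 10.2 and 35.3 units and was called higher in M2 exosomes.

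The ratio also differed by base composition. A sequence was found for 293 of the 337 miRNAs, or 86.9%. The median log2 ratio was -0.33 in the 62 with less than 40% G or C, 0.06 in the 163 from 40% to 55%, and 0.51 in the 68 above 55%. The Spearman correlation was 0.18 across these miRNAs, which share the 2 libraries and are not replicates. The guide, at 36.4%, falls in the first class and the passenger, at 59.1%, in the last, each on the same side of 0 as the median of its class. The part of base composition in the arm difference was not tested.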

How the data were processed

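Small RNA from M1 and M2 exosomes was sequenced, 1 library each, after preparation with a NEBNext small RNA kit per the labels' protocols. Bowtie2, bedtools and the mm10 build (GRCm38) are named per the submitters' processing notes. The normalization, like the counting and the assignment of reads matching several entries, is not given in the sources used here. Each deposited file holds 1 log2 value per mature miRNA, a scale read from the values. As levels, the low values fell on steps of 0.80 units in M1 exosomes (99.4% of 175 values whole within 0.1 step) and 1.22 units in M2 exosomes (95.3% of 129), taken as 1 read. Low M2 values followed the M1 value, so the libraries appear to have been normalized together, and the total depth is unknown. Levels summed to 686353 and 734637 units.

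Ratios are differences of deposited log2 values, M1 minus M2, which are too small for low miRNAs because 1 is added to the level. The comparison took miRNAs at 10 units in at least 1 library and called a difference at 2-fold. With 1 library per group no p-value was computed. A hairpin was compared if its name had a 5p and a 3p entry and each passed the minimum. The named miRNAs are both strands, their relatives, the 5 nearest to each in level, rank neighbours, the 5 hairpins with the largest arm difference each way and the 5 nearest to miR-21a, and up to 4 members of each list with a mean of at least 100 units. Others were named after their values were seen. Members and lists were chosen with earlier results of these data known. A further list is not reported here. Sequences and hairpin positions are from RefSeq (GRCm38.p6) and overlaps from GENCODE M21. Folding used ViennaRNA 2.7.2, and other steps Python 3.11.15, numpy 2.4.6 and pandas 2.3.3. The procedure was run on simulated libraries with known changes and counting error only, which tests the code and not the reliability of the 2-fold calls. Other pseudocounts, scalings and minimums were tried.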

Additional observations from a re-analysis of the deposited data

How the results depend on the processing

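The direction of both strands and of the arm difference was the same under every alternative run (other pseudocounts for all 3, and other scalings for the strands). For the strands these runs could not test the direction. A pseudocount cannot reverse the order of 2 levels, and each scaling moved every ratio by the same small amount. The log2 ratio of miR-21a-5p, -0.99, passed 2-fold at -1.05 when libraries were divided by their summed level without the 10 most abundant miRNAs and at -1.03 when centred on the median. That of miR-21a-3p, 1.06, fell to 0.97 with a pseudocount of 5. The scalings moved all ratios by -0.06 to 0.10. The counts over all miRNAs depended on the minimum level. With no minimum 201 were called higher in the M1 and 229 in the M2 library, with 100 units in at least 1 library 37 and 33, and with 10 units in both libraries 55 and 37, against 88 and 77. The hairpins past a 2-fold arm difference numbered 85 of 160 with no minimum, 8 of 21 with 100 units and 16 of 42 with 10 units in both, or 53.1%, 38.1% and 38.1%. No paired analysis was possible because the groups hold a single library each, which also means that none can be omitted in turn. The ratio of the passenger rests on a level of roughly 23 reads in M2 exosomes and has no replicate.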
